A study of Mus musculus with 12 samples.

Results

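Nonhomologous end joining (NHEJ) was examined through 8 genes, Xrcc5, Xrcc6, Dclre1c, Polm, Poll, Xrcc4, Lig4 and Nhej1, chosen by name. Each name matched 1 row of the normalized counts table, which lists 29486 genes, and all 8 had at least 10 counts in at least 4 libraries, as did 15507 genes in all (the kept genes). The table holds mRNAseq of splenic B cells from C57BL/6Babr mice of 8 to 12 weeks, isolated with a kit and activated in culture with LPS (10 μg/ml), a bacterial mitogen. All cells therefore carried LPS activation, in 3 conditions of 4 biological replicates each: LPS for 48 h alone, LPS for 48 h followed by etoposide (20 μM, 4 h), and LPS for 47 h, then the ATM kinase inhibitor KU55933 (10 μM, 1 h), then etoposide (20 μM, 4 h). Etoposide traps topoisomerase II on DNA and so leaves double strand breaks. Cells given KU55933 without etoposide were not analysed here, and it is not stated in the labels if LPS-only cells were kept for the further 4 h. The Illumina indexes also differ by condition, so that index and condition cannot be told apart.

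NHEJ joins broken DNA ends directly, with little or no matching sequence between them. The Ku heterodimer of Ku70 (Xrcc6) and Ku80 (Xrcc5) slides onto each end and brings in the kinase DNA-PKcs, which turns on the nuclease Artemis (Dclre1c). Polymerases mu (Polm) and lambda (Poll) fill gaps, and DNA ligase IV (Lig4) seals the ends together with its scaffold XRCC4 (Xrcc4) and with XLF (Nhej1). B cells depend on this pathway for V(D)J recombination in their precursors and for class switch recombination after activation.

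The normalized counts bear on what can be said. Between any pair of columns of a condition, the ratio was the same in all genes, to within 1.4e-14 (log2). Each column is thus a fitted mean of its condition times a factor of the library, without any variation among replicates. Poll shows this: its deposited values were 494, 548, 570 and 514 in the LPS libraries, 1014, 1136, 1376 and 1102 in the etoposide libraries, and 775, 874, 937 and 952 in those with the inhibitor and etoposide. The conditions do not overlap, but the differences inside a condition are those of the library factors alone. Each column was therefore divided by its factor, which gave each gene 1 normalized count per condition, and no test between conditions could be made from these columns. The authors' own standard errors and p-values were left unused by choice. Log2 ratios were taken after adding 1 to each count. Their 95% intervals are exact binomial intervals on the fitted counts summed over the 4 libraries of a condition. They cover counting error only, not the variation between animals or cultures, and are too narrow as intervals for the treatments.

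The libraries totalled 20400994 to 30575195 counts. Of 7 B cell markers, all were present at 1122 counts or more in every condition, and their sum was 212185, 140568 and 147611 counts in the same order. The sums were 314, 271 and 259 counts for 6 myeloid markers, 218, 186 and 116 for 6 red blood cell markers, 16.4, 29.9 and 19.5 for 6 T cell markers, and 0.795, 0.981 and 1.42 for the 2 NK cell markers found. Of the T cell markers only Cd247 was kept, at 8.20, 20.98 and 10.17 counts, and the other 5 stayed at 3.60 counts or fewer. Among the B cell markers Pax5 had 5544, 1122 and 1166 counts and Cd22 24112, 4277 and 5055. The part of these shifts in the values of the 8 genes was not tested, and in a bulk culture fewer cells of a type and less RNA per cell cannot be told apart.

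Levels of the 8 genes were compared per kilobase (kb) of merged exons. With LPS alone the genes formed an upper set made of the Ku subunits and polymerase mu. Xrcc6 had 433 counts per kb, Polm 424 and Xrcc5 421, and the neighbours in this order did not differ beyond counting error. Counting error holds no error of the exon lengths, and the undivided counts were 1938, 1551 and 1076. Poll followed with 260 counts per kb and Dclre1c with 115. The ligation genes were the lowest, at 82.8 counts per kb for Nhej1, 65.5 for Lig4 and 47.5 for Xrcc4. Xrcc6 thus stood at the 77.3 percentile of the kept genes and Xrcc4 at the 33.1 percentile.

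**Figure D1:**
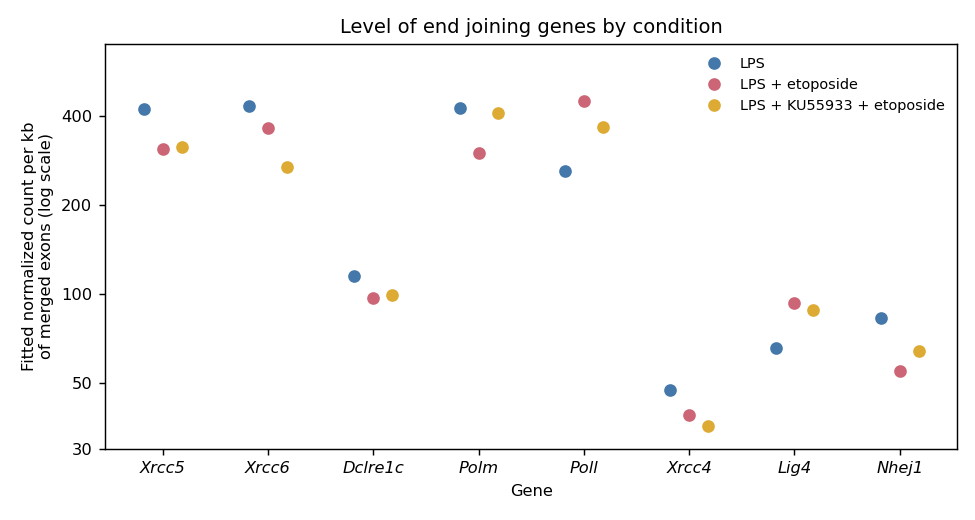
Fitted normalized count per kb of merged exons (vertical axis, log scale) of the 8 genes (horizontal axis) in the 3 conditions, 1 point per gene and condition. Poll was at 260 with LPS and at 449 with etoposide, above the other 7 genes, while Xrcc4 was the lowest in each condition.

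The order was different with etoposide. Poll became the highest of the 8 genes, at 449 counts per kb, ahead of Xrcc6 (363), Xrcc5 (308) and Polm (301). Lig4 (93.4) came level with Dclre1c (96.6) within counting error and passed Nhej1 (55.0). With KU55933 and etoposide, Polm was the highest (409), followed by Poll (368), Xrcc5 (314) and Xrcc6 (268). Xrcc4 was last in all 3 conditions, at 39.1 counts per kb with etoposide and 35.7 with the inhibitor. This order rests on the division by exon length. Without it, Poll had 1043 counts with etoposide, below Xrcc6 (1623) and Polm (1099), and Nhej1 (61.4) was below Xrcc4 (165).

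Etoposide against LPS asks how the transcripts of the joining machinery stand 4 h after breaks are induced. The genes did not move as a block: Poll and Lig4 were higher with etoposide and the other 6 were lower. The median log2 ratio of the 8 genes was −0.27, against −0.015 for all kept genes. Only Poll was past 1.5-fold upward, 1 of 8 genes, where 21.9% of the kept genes were past it. Downward none of the 8 was past 1.5-fold, against 16.2% of the kept genes. These shares depend on the scaling. They were 25.2% and 11.9% with library totals, 17.9% and 20.5% after quantile normalization, and 33.2% and 7.35% for the columns as deposited. The filter moved them too: they were 14.5% and 11.8% with no filter, 18.9% and 15.4% for a minimum of 50. Where every library had to reach 10 counts, they were 17.8% and 15.0%. The ratios also varied with level when the kept genes were split by mean count into 5 sets. The median log2 ratio was 0.38 in the lowest set, which holds none of the 8. It was −0.091 in that of Xrcc5, Xrcc6, Dclre1c, Polm and Poll, 0.080 in that of Xrcc4 and Nhej1 and −0.062 in that of Lig4.

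Poll encodes a family X polymerase that fills short gaps during end joining and also serves base excision repair. Its normalized count was 604 with LPS, 1043 with etoposide and 854 when KU55933 preceded etoposide. With etoposide it was higher by a fold of 1.73, a log2 ratio of 0.79 (counting interval 0.71 to 0.86), at the 82.4 percentile of the kept genes. Lig4 had 341, 486 and 458 counts in the same order. It was higher by a fold of 1.42 with etoposide, a log2 ratio of 0.51 (0.41 to 0.61), short of 1.5-fold. Both genes were above the median of all kept genes in the main values and under all 10 alternatives to them. Alternatives that only change the factor of a library move a gene and this median alike, so they could not give another outcome.

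Of the end binding genes, Xrcc5 had 1076 counts with LPS, 787 with etoposide and 802 with the inhibitor added. Xrcc6 had 1938, 1623 and 1200. Their log2 ratios with etoposide were −0.45 (−0.52 to −0.38) and −0.26 (−0.30 to −0.21). Both subunits of Ku were therefore lower after etoposide, Xrcc5 more than Xrcc6, with the sign of Xrcc6 turning to 0.079 for the columns as deposited. Dclre1c, the nuclease that opens hairpin ends, had 1069, 900 and 928 counts. Its log2 ratio was −0.25 (−0.31 to −0.18), or 0.087 for the columns as deposited.

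Polm, the other family X polymerase, stood opposite to Poll. It had 1551 counts with LPS, 1099 with etoposide and 1496 when KU55933 preceded etoposide, and its log2 ratio with etoposide was −0.50 (−0.55 to −0.44). The partners of the ligase were lower as well. Xrcc4 had 200, 165 and 150 counts and a log2 ratio of −0.28 (−0.43 to −0.13), which became 0.055 for the columns as deposited. Nhej1 had the fewest counts, 92.6, 61.4 and 71.6, and the lowest log2 ratio, −0.58 (−0.83 to −0.35). At more digits this is −0.584, just inside the limit of 0.585 that 1.5-fold sets, and 3 of the 10 alternatives put Nhej1 past it.

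**Figure D2:**
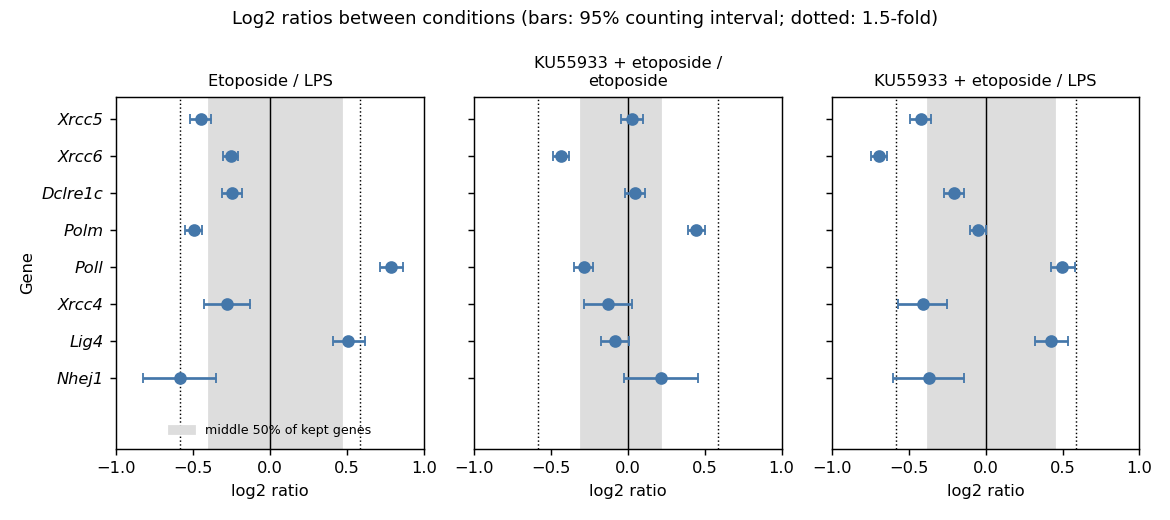
Log2 ratio (horizontal axis) of the 8 genes in the 3 comparisons; points are ratios of fitted counts, bars are 95% counting intervals that hold no replicate error, the grey band runs from the lower to the upper quartile of the kept genes and dotted lines mark 1.5-fold. Poll lies past 1.5-fold in the first panel at 0.79 and Xrcc6 in the third at −0.69, and the second panel has no gene past it.

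KU55933 with etoposide against etoposide alone asks how the state after damage stands with an inhibitor of ATM, the kinase that signals double strand breaks. Without cells given KU55933 alone, an effect of the inhibitor itself cannot be told apart from one on the damage response. None of the 8 genes was past 1.5-fold, upward (7.16% of the kept genes) or downward (11.6%). For the columns as deposited these shares were 5.16% and 15.0%. They were 5.02% and 7.64% with no filter and 6.52% and 9.52% for a minimum of 50. Where every library had to reach 10 counts, they were 6.72% and 8.49%. The median log2 ratio of the 8 genes was −0.029, against −0.038 for all kept genes, with 4 genes above 0 and 4 below. The genes that stood farthest from 0 were Polm and Xrcc6, in opposite directions. Polm was higher with the inhibitor by 0.44 on the log2 scale (0.39 to 0.50), at the 88.4 percentile of the kept genes. Xrcc6 was lower, at −0.44 (−0.49 to −0.38) and the 17.1 percentile. Poll was lower too, at −0.29 (−0.35 to −0.22).

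For the other 5 genes, the counting interval of this comparison included 0. The log2 ratios were 0.027 for Xrcc5, 0.043 for Dclre1c, −0.13 for Xrcc4, −0.084 for Lig4 and 0.22 for Nhej1. The interval of Lig4 ran from −0.17 to 0.0051, and that of Nhej1, with the fewest counts, from −0.026 to 0.46. Lig4 thus stood near its etoposide level when KU55933 preceded etoposide, while Poll stood between its levels in the other 2 conditions. For Xrcc5 and Dclre1c the columns as deposited gave the opposite sign, −0.073 and −0.056.

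The cells with KU55933 and etoposide were also set against LPS alone. This comparison shares the LPS libraries with the first and the inhibitor libraries with the second, so that its values are no separate evidence. Xrcc6 was past 1.5-fold downward, at −0.69 (−0.75 to −0.64), 1 of 8 genes where 15.5% of the kept genes were. It was not past it with library totals (−0.52) or for the columns as deposited (−0.46). None was past 1.5-fold upward, against 20.5% of the kept genes. The shares of kept genes past 1.5-fold upward and downward were 26.7% and 10.3% with library totals. They were 29.6% and 8.96% for the columns as deposited. With no filter they were 12.6% and 10.5%, and for a minimum of 50 they were 18.2% and 15.0%. Where every library had to reach 10 counts, they were 17.0% and 14.7%. The median of the 8 genes was −0.29 and that of all kept genes 0.023. Poll at 0.50 (0.42 to 0.58) and Lig4 at 0.43 (0.32 to 0.53) were higher than with LPS. Xrcc5 had −0.42, Xrcc4 −0.41, Nhej1 −0.37 and Dclre1c −0.20, the last with the opposite sign (0.031) for the columns as deposited. Polm had −0.052 (−0.10 to 0.0011), and its sign turned under TMM factors, library totals, quantile normalization and for the columns as deposited.

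Ratios of 2 genes in the same library do not depend on how libraries are scaled to each other. They were taken per kb for genes whose products work as partners. For the gap filling polymerases, the ratio of Poll to Polm was 0.613 with LPS (counting interval 0.583 to 0.645), 1.49 with etoposide (1.43 to 1.56) and 0.899 when KU55933 preceded it (0.862 to 0.937). It was thus 2.44 times as high with etoposide as with LPS, and 1.47 times as high with the inhibitor added. Polm was the more abundant per kb in LPS and with the inhibitor, and Poll with etoposide. With no division by length the ratio was 0.390, 0.949 and 0.571, so that Polm had more counts than Poll in each condition.

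For the Ku subunits, the ratio of Xrcc5 to Xrcc6 was 0.973 with LPS (0.935 to 1.01), 0.850 with etoposide (0.816 to 0.885) and 1.17 when KU55933 preceded it (1.12 to 1.22). The interval included 1 with LPS and not in the other 2 conditions. It holds no error of the exon lengths, so that it cannot show equal levels. With no division by length the ratio was 0.555, 0.485 and 0.668. For the ligase and its scaffold, the ratio of Xrcc4 to Lig4 was 0.724 with LPS (0.660 to 0.796) and 0.419 with etoposide (0.385 to 0.456). With the inhibitor it was 0.406 (0.370 to 0.444), so that the values of both etoposide conditions lay within each other's intervals. Xrcc4 to Nhej1, the scaffold and its paralog, had overlapping intervals in the 3 conditions, with ratios of 0.573, 0.712 and 0.558.

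**Figure D3:**
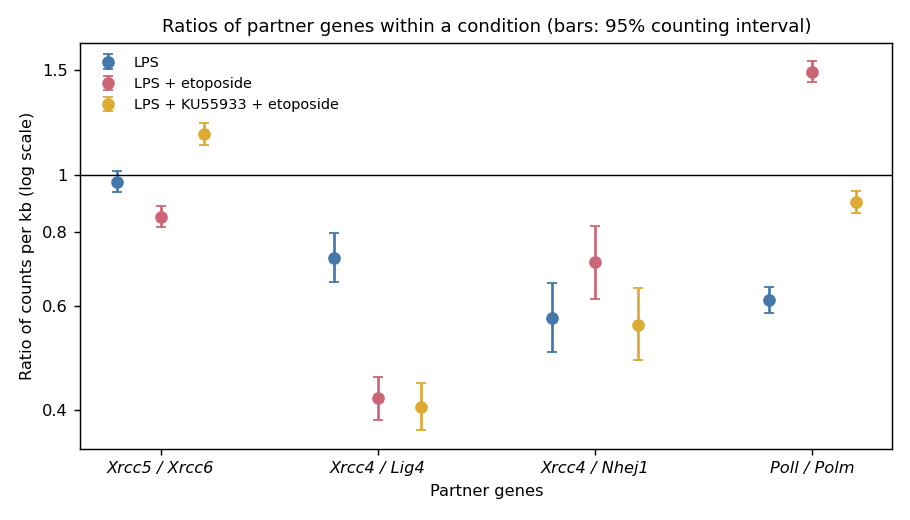
Ratio of counts per kb (vertical axis, log scale) between partner genes within each condition; points are ratios of fitted counts and bars 95% counting intervals, with no replicate error. Poll / Polm was at 0.613, 1.49 and 0.899 with LPS, with etoposide and with the inhibitor added, and Xrcc4 / Lig4 at 0.724, 0.419 and 0.406.

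The 8 genes differ widely in structure. On GRCm38 in GENCODE M21, Poll (chromosome 19, 45552275 to 45560531), Lig4 (chromosome 8, 9969049 to 9977686) and Polm (chromosome 11, 5827860 to 5838016) are the shortest, spanning 8.26, 8.64 and 10.2 kb. The 2 genes that were higher with etoposide were thus the shortest of the 8, and the next in span, Polm, was lower. Dclre1c spans 40.0 kb (chromosome 2, 3424131 to 3464130), Xrcc6 52.3 kb (chromosome 15, 81987835 to 82040085) and Xrcc5 87.5 kb (chromosome 1, 72307421 to 72394952). Nhej1 (chromosome 1, 74967139 to 75125200) and Xrcc4 (chromosome 13, 89774027 to 90089608) are the longest, at 158 and 316 kb. The kept genes were split by span into 5 sets of near equal size. Their median log2 ratio with etoposide was 0.021 in the set that holds Poll, Lig4 and Polm, −0.0097 in that of Dclre1c and Xrcc6 and −0.16 in the longest set, which holds Xrcc5, Nhej1 and Xrcc4. The part of gene length in the values of the 8 genes was not tested.

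Exons of 3 of the genes overlap a gene on the opposite strand, Xrcc6 with Desi1 over 344 bases (7.69% of its exons), Dclre1c with Suv39h2 over 357 bases (3.83%) and Xrcc4 with Tmem167 over 112 bases (2.66%). The strand setting of the counting is not given in the sources used here, so that reads in these stretches may not be told apart.

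The promoters were read for motifs, since genes of the same pathway stood in opposite directions. Windows of 250 bases before the start site came from RefSeq on GRCm38.p6 for 7 of the 8 genes, with Poll without an entry. They were searched on both strands for the p53 half-site (RRRCWWGYYY) and the NF-kB site (GGGRNNYYCC). In these patterns R is A or G, Y is C or T, W is A or T and N is any base. The E2F site (TTTCCCGC, TTTCGCGC, TTTGCCGC or TTTGGCGC), the CCAAT box (CCAAT) and the GC box (GGGCGG) were searched likewise. No window of the 7 genes matched the 10-letter patterns used for the p53 half-site and the NF-kB site, which 7.13% and 7.25% of all 32851 windows hold. Most windows lack each of them, so their absence does not set the 7 genes apart. The E2F letters were found for Xrcc6 alone, 46 bases before the start, and are held by 1.86% of all windows. A GC box was found for 6 of the 7 genes (32.7% of all windows), all but Xrcc5, and a CCAAT box for Xrcc5, Dclre1c and Polm (33.8%). The shares are per window, while a gene was counted if any of its windows matched. Lig4 has a window at each of 2 start sites, and the one nearer its coding sequence held GC boxes while the other held none of the motifs. The window of Xrcc6 and the Lig4 window nearer the coding sequence lie inside the GENCODE spans of these genes. A match is a description of the letters and no evidence of binding.

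The windows of Xrcc6 and Polm are shown because these genes stood farthest apart under KU55933, and the Lig4 window with GC boxes as that of a gene higher with etoposide. Capitals mark matches to the E2F site, the CCAAT box and the GC box on either strand. Xrcc6 is at chr15:82016119-82016368 on the plus strand, Polm at chr11:5838017-5838266 and Lig4 at chr8:9976312-9976561, both on the minus strand, and each is written 5′ to 3′ in the direction of its gene.
Xrcc6: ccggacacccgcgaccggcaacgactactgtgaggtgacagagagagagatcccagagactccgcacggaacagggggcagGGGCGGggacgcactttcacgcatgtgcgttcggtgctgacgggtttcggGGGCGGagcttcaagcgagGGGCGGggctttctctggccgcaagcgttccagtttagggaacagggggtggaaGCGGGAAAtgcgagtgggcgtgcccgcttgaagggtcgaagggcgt
Polm: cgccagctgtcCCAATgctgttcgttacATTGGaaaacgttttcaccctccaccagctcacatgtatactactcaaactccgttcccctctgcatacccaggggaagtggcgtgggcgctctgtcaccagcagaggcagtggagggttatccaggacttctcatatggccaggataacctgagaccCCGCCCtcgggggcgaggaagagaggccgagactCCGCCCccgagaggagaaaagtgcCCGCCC
Lig4: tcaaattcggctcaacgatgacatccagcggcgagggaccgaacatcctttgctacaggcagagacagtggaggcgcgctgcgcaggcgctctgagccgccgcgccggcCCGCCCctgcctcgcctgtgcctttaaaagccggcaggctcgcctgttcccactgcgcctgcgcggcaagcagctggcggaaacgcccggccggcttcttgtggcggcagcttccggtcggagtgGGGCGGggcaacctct

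The other genes of the pathway were taken from 4 lists. Of 7 core factors outside the 8, 6 were kept, and none was past 1.5-fold with etoposide against LPS, where 21.9% of the kept genes were past it upward and 16.2% downward. The median of the list was −0.23, against −0.015 for all kept genes. With KU55933 under etoposide 2 of the 6 were past it upward, where 7.16% of the kept genes were. These were Paxx, a factor that binds Ku, at 0.66 (212 to 334 counts) and Aptx, which removes stalled ligation products, at 0.62 (308 to 472 counts). Neither was past it for the columns as deposited. Prkdc, the gene of DNA-PKcs, had 3118 counts with LPS, 2856 with etoposide and 2659 when KU55933 preceded etoposide. Dntt, the lymphoid polymerase that adds untemplated bases during V(D)J recombination, had at most 5.25 counts in any condition.

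End resection and alternative end joining form the competing route. Of 11 kept genes, 4 were past 1.5-fold downward with etoposide (16.2% of the kept genes) and none upward (21.9%). The median of the list was −0.40, against −0.015 for all kept genes. With library totals or quantile normalization 2 were past it, and 1 for the columns as deposited. The number was 3 under TMM factors, a minimum of 50, the recovered factors of the authors and at least 10 counts in every library. With no filter it was 5. Parp1, a sensor of breaks, had 12485 counts with LPS, 5756 with etoposide and 5651 with the inhibitor, a log2 ratio of −1.12 with etoposide. Nbn, a subunit of the complex that tethers ends, had −0.86. Against LPS with KU55933 and etoposide 5 of the 11 were past it downward, where 15.5% of the kept genes were, and none upward (20.5%). The number was 2 with library totals and for the columns as deposited and 3 with quantile normalization. It was 4 under TMM factors, a minimum of 50 and at least 10 counts in every library, and 6 with no filter. Among the 5 were Lig1, the replicative ligase, at −0.85 and the exonuclease gene Exo1 at −0.67. Exo1 was also the only gene of the list past 1.5-fold with KU55933 under etoposide, downward at −0.61, where 11.6% of the kept genes were. It was not past it under TMM factors, library totals or with no filter.

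Of 9 genes of break signalling, 2 were past 1.5-fold downward with etoposide, H2afx and Atm, where 16.2% of the kept genes were, and none upward (21.9%). The median was −0.36, against −0.015 for all kept genes. H2afx, the histone variant that is phosphorylated around breaks, had 1890, 228 and 835 counts in the 3 conditions. With KU55933 under etoposide it was the only one of the 9 past 1.5-fold, upward at 1.87, where 7.16% of the kept genes were. Atm itself had 8293, 5453 and 7816 counts and a log2 ratio of −0.60 with etoposide. Under TMM factors, library totals and quantile normalization 1 of the 9 genes was past 1.5-fold downward with etoposide, and for the columns as deposited 1 was past it downward and 1 upward. Against LPS with the inhibitor 2 of the 9 were past it downward, where 15.5% of the kept genes were, H2afx at −1.18 and Rif1, which holds back resection, at −0.91.

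A further list holds genes that act in programmed breaks at immunoglobulin loci. Of 5 kept genes, 2 were past 1.5-fold upward (21.9% of the kept genes) and 1 downward (16.2%) with etoposide. The median was −0.38, against −0.015 for all kept genes. The mismatch repair gene Msh6 had 4186, 9528 and 6179 counts in the 3 conditions, a log2 ratio of 1.19 with etoposide. Hmces, which shields abasic sites, had 209, 323 and 272 counts and a log2 ratio of 0.62. Ung, which removes uracil from DNA, had 825, 399 and 338 counts and was the gene past it downward, at −1.05. With KU55933 under etoposide Msh6 alone was past 1.5-fold, downward at −0.62, where 11.6% of the kept genes were. Msh6 was not past it under TMM factors, library totals or quantile normalization. Against LPS with the inhibitor 2 of the 5 were past it downward, where 15.5% of the kept genes were, Ung at −1.28 and Pms2, of mismatch repair, at −0.71. None was past it upward (20.5%) in the main values, but 1 was under TMM factors, library totals, quantile normalization, a minimum of 50 and at least 10 counts in every library, and 2 were for the columns as deposited. Downward 1 was past it with library totals and for the columns as deposited. The recombinase genes Rag1 and Rag2 had at most 3.19 and 0.093 counts.

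The pattern of each gene was also set against those of the others. Over the log2 ratios of both etoposide conditions against LPS, the distances to the nearest of the 8 ran from 0.15 between Xrcc5 and Nhej1 to 0.29 for Polm, Poll and Lig4, with Poll and Lig4 nearest to each other. Within a distance of 0.1 lay 89 of the 15507 kept genes for Poll (0.574%) and 404 for Dclre1c (2.61%), the lowest and highest numbers of the 8 genes. The nearest genes with a mean of at least 100 counts were Srp72 and Polr2a for Poll, Sumf2 and Prickle3 for Lig4, Tigd2 and Mrgpre for Polm, and Cox7b and Rbm12b2 for Xrcc6, at distances from 0.010 to 0.020. They were Tmed10 and Snx1 for Xrcc5, Ranbp3 and AU020206 for Dclre1c, Pcbp1 and Arcn1 for Xrcc4, and Itfg2 and Cep68 for Nhej1, at distances from 0.0028 to 0.0081. Likeness over 3 values describes these conditions only.

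The scaling moves all ratios of a comparison together. Relative to the median of all kept genes, which library totals moved by 0.13 for etoposide against LPS and the columns as deposited by 0.33, Poll and Lig4 were above and the other 6 genes below under every setting. A single factor per library moves all genes alike, so that these scalings cannot turn this order. The columns as deposited still carry the library factors, so that their ratios and signs are not corrected for sequencing depth. Quantile normalization is no single factor, and under it Poll was at 0.78 and Lig4 at 0.45 with etoposide, and Nhej1 at −0.94.

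**Figure D4:**
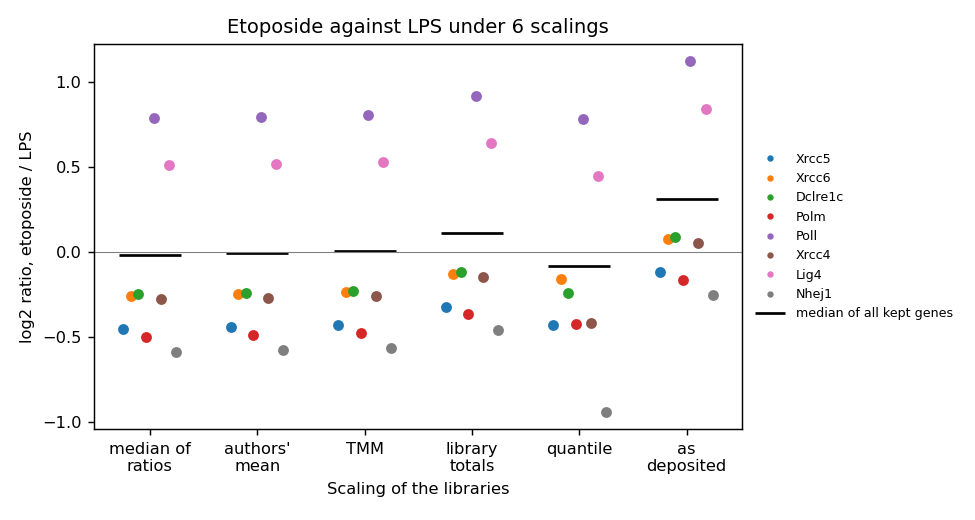
Log2 ratio of etoposide to LPS (vertical axis) for the 8 genes under 6 scalings of the libraries (horizontal axis); points are genes, spread sideways for clarity, and black bars are the median of all kept genes. Poll and Lig4 lie above the median of all kept genes in each scaling, and the other 6 genes lie below it. The scalings other than quantile normalization are a single factor per library and cannot turn this order. The columns as deposited are not corrected for sequencing depth.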

How the data were processed

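Per the labels and the study's methods, polyadenylated RNA of 12 libraries (4 per condition) was sequenced with 100 base single end reads on a HiSeq 2000. The authors trimmed with Trim Galore and cutadapt 1.2.1, mapped to GRCm38 with TopHat2 2.0.12, counted on Ensembl release 78 genes with HTSeq and fitted DESeq2 1.6.3. The deposited table named normalized counts holds a signal, the fitted mean of a condition times a factor of the library, as described above. The 3 deposited comparison tables hold the authors' log2 fold changes, standard errors, statistics and p-values, which were not used. Only the mean over all libraries in 1 of them served, to recover the authors' library factors.

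Here, columns were divided by median-of-ratios factors over the 15507 kept genes (0.817 to 1.32), which differ from the recovered factors of the authors by at most 0.455%. The normalized counts hold no replicate error and the authors' standard errors and p-values were left unused by choice, so the limma fit foreseen for columns with a spread was not made and no p-value is given. Genes past 1.5-fold are counted as descriptions. Quantile normalization and TMM were among the alternatives. The functions were checked on simulated data. The work was done in Python 3.11.15, with pandas 2.3.3 for tables, numpy 2.4.6 and scipy 1.17.1 for values and matplotlib 3.10.9 for plots. GENCODE M21 covers 99.5% of the kept genes.

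The 8 genes, the pathway lists and the alternatives were chosen with earlier results of these data known. Of each pathway list, up to 4 genes with the largest log2 ratios past 1.5-fold and those at 10 counts or fewer are named, and Prkdc was added after its values were seen. Paxx is named BC029214 in the table. Of the list on programmed breaks, 1 gene is not reported here and was left out of its counts.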

Additional observations from a re-analysis of the deposited data

How the results depend on the processing

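No paired analysis was possible because the columns of a condition are 1 fitted mean times a library factor, and for the same reason no library was left out in turn. The median log2 ratio of the 8 genes for etoposide against LPS was −0.14 with library totals, 0.067 for the columns as deposited and −0.35 with no filter, which also changes the genes that set the scaling. With KU55933 under etoposide it was −0.13 for the columns as deposited. Against LPS with the inhibitor it was −0.11 with library totals and −0.052 for the columns as deposited. The number of the 8 genes past the limit with etoposide was 2 with library totals and for the columns as deposited (Poll and Lig4), 2 with quantile normalization, a pseudocount of 0.5 or no filter (Poll and Nhej1), and 0 at 2-fold. Against LPS with the inhibitor it was 2 with library totals and for the columns as deposited (Poll and Lig4), 2 with quantile normalization (Xrcc6 and Nhej1), and 0 at 2-fold. In that comparison 17.2% of the kept genes were past 1.5-fold upward and 16.5% downward under quantile normalization. With a pseudocount of 0.5 the shares with etoposide were 22.1% upward and 16.4% downward. At 2-fold, the kept genes past it upward and downward were 14.2% and 6.02% with etoposide, 1.77% and 4.59% with KU55933 under etoposide, and 11.1% and 5.91% against LPS with the inhibitor. TMM factors, a pseudocount of 5, a minimum of 50, and 2 settings chosen after seeing the data, the recovered factors of the authors and at least 10 counts in every library, left the medians within the counting error and the numbers of the 8 genes as they were.

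With no division by exon length the partner ratios in LPS, etoposide and the inhibitor condition were 0.555, 0.485 and 0.668 for Xrcc5 to Xrcc6, 0.587, 0.339 and 0.328 for Xrcc4 to Lig4, 2.16, 2.68 and 2.10 for Xrcc4 to Nhej1, and 0.390, 0.949 and 0.571 for Poll to Polm. Adding 1 to each count left each ratio within its interval.

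The pathway lists were recomputed under the same alternatives, a step added after seeing the data. For core factors, 1 gene was past the limit with etoposide for the columns as deposited and with no filter, and 0 with KU55933 under etoposide for the columns as deposited and at 2-fold. For resection and alternative end joining, 2 genes were past it with etoposide under library totals and quantile normalization, and 1 for the columns as deposited and at 2-fold. The number was 3 under TMM factors, a minimum of 50, the recovered factors of the authors and at least 10 in every library, and 5 with no filter. With KU55933 under etoposide the number was 0 under TMM factors, library totals, no filter and 2-fold. Against LPS with the inhibitor it was 2 under library totals and for the columns as deposited, 3 under quantile normalization and 1 at 2-fold. In that comparison it was 4 under TMM factors, a minimum of 50 and at least 10 in every library, and 6 with no filter. For break signalling, 1 gene was past it with etoposide under TMM factors, library totals, quantile normalization, a minimum of 50, at least 10 in every library and 2-fold, 2 with KU55933 under etoposide under quantile normalization, and 1 against LPS with the inhibitor at 2-fold. For programmed breaks, 0 genes were past it with KU55933 under etoposide under TMM factors, library totals, quantile normalization and 2-fold, 2 with no filter, where Rag1 enters at 3.19 counts or fewer, and 1 against LPS with the inhibitor at 2-fold. For the columns as deposited, the split of break signalling with etoposide was 1 upward and 1 downward, and that of programmed breaks against LPS with the inhibitor 2 upward and 1 downward. Counting error is largest for Nhej1, with 273 to 326 fitted counts summed per condition.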
